A study of Homo sapiens with 8 samples.

Results

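The mRNAs of EXO1, PRRC2A, MARCKSL1, S100A11 and CCT3 are described here as leading targets of NSun6, an RNA methyltransferase that places a methyl group on cytosine. These 5 genes, of 10713 protein-coding genes and 12703 genes of all kinds with an exon read in any library, were selected on NSun6 against NSun3 miCLIP reads, as the genes with the most NSun6 reads and no NSun3 read. RNA bound by each enzyme was sequenced by miCLIP in 6 libraries from HEK293, an established line of human embryonic kidney origin. A myc-tagged NSun3 construct was transfected for 3 of them and a myc-tagged NSun6 construct for the other 3, the cells were harvested 24 h later, and RNA was recovered with an anti-myc antibody. The miCLIP libraries thus report on RNA bound by the transfected enzyme. For NSun3 the construct is described as a mutant that cannot let go of its target cytosine, and for NSun6 the mutation is not given in the sources used here. NSun3 thus served as the comparator for NSun6. The remaining 2 samples are bisulfite RNA sequencing of oligo(dT)-selected HEK293 RNA, for which no transfection is named, and both are held in 1 table.

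5-methylcytosine in RNA is made by the NSun family and by a DNA-methyltransferase-like enzyme. NSun6 is known for methylating the acceptor end of cytoplasmic tRNA-Cys and tRNA-Thr and for acting on mRNA at a short motif that is read as CUCCA in RNA and is written CTCCA here. In miCLIP reverse transcription stops beside the cytosine that carries the enzyme, so the start of a read marks the site, and in bisulfite sequencing an unmethylated cytosine is read as thymine while 5-methylcytosine is still read as cytosine.

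The site that took the most NSun6 reads in each gene is shown because reads of each gene gathered at 1 cytosine. The sequences are genomic, from the GRCh37 primary assembly (hg19), 5′ to 3′ on the strand of the gene, and the capitals mark the 5 bases that begin at the leading cytosine. They lie at chr1:242011588-242011616 on the plus strand for EXO1, chr6:31604108-31604136 on the plus strand for PRRC2A, chr1:32801606-32801634 on the minus strand for MARCKSL1, chr1:152006254-152006282 on the minus strand for S100A11 and chr1:156287282-156287310 on the minus strand for CCT3.
EXO1: gtcggagcgggtttCTCCAaccgcaatcg
PRRC2A: cggctggaggagttCTCTAccctccacct
MARCKSL1: atgggcagccagagCTCCAaggctccccg
S100A11: ccaaaggcaaaaatCTCCAgccctacaga
CCT3: acttcacccgaattCTCCAgatggaggaa
In EXO1, MARCKSL1, S100A11 and CCT3 the capitals read CTCCA, and in PRRC2A they read CTCTA. The first 6 bases shown for S100A11 lie in the intron before its exon 2, and all other bases shown lie in exons.

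The NSun3 libraries held 138921, 53024 and 47352 reads and the NSun6 libraries 323935, 467586 and 305392, so that a read was worth 7.20 to 21.1 RPM (read counts scaled to the total of the file) with NSun3 and 2.14 to 3.27 RPM with NSun6. Exons of protein-coding genes took 1.27% to 2.25% of NSun3 reads and 49.0% to 50.5% of NSun6 reads. Reads over NSUN6 numbered 323, 428 and 323 in the NSun6 libraries and 0 in each NSun3 library. Reads over NSUN3 numbered 32 and 19 in NSun3 replicates 1 and 2 but 0 in the library labelled NSun3 replicate 3, and 0, 0 and 8 in the NSun6 libraries. In the bisulfite table VIM, KRT8, KRT18 and NEFM had 128 to 2699 reads per exon cytosine and PAX2, also listed for this line, 4.08. Of the markers of other cell types ALB, PTPRC, HBB and CD3E had 0 to 0.311 and COL1A1 had 23.3, against a median of 11.8 over 20121 protein-coding genes.

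EXO1, an exonuclease of DNA mismatch repair and of the processing of DNA ends, had the most NSun6 reads of any protein-coding gene. Its exons held 1802, 2090 and 1483 reads in NSun6 replicates 1, 2 and 3, which is 5563, 4470 and 4856 RPM. The mean was 4963 ± 554 RPM (SD, n = 3), and no NSun3 library held an exon read on its strand. With the limit that a count of 0 allows, 3 reads per library or 47.2 RPM on average over the NSun3 libraries, the NSun6 level was at least 105.2-fold higher. Without NSun3 replicate 3 this bound was 127-fold. These bounds cover counting error only, whereas NSun3 libraries differed from each other by more than that (chi-square per degree of freedom over genes 26.0 to 33.7, against 3.67 to 5.76 between NSun6 libraries), and CALR, for example, had 77, 0 and 0 NSun3 reads. A single read on the opposite strand was found, in NSun3 replicate 1.

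PRRC2A, a proline-rich RNA-binding protein, followed with 1478, 1669 and 1297 reads, or 4563, 3569 and 4247 RPM. Its mean was 4126 ± 507 RPM (SD, n = 3), at least 87.5-fold above NSun3. Exons of 3 other genes lie on the same strand within its span, SNORA38 among them, and 0.720% of its reads fell in such exons. MARCKSL1, an actin- and calmodulin-binding protein related to MARCKS, held 1171, 1712 and 1337 reads, or 3615, 3661 and 4378 RPM, with a mean of 3885 ± 428 RPM and a bound of 82.3-fold.

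S100A11, a calcium-binding protein of the S100 family, held 966, 904 and 728 reads, or 2982, 1933 and 2384 RPM. It varied most among the 5 genes, with a mean of 2433 ± 526 RPM (coefficient of variation 21.6%) and a bound of 51.6-fold. CCT3, the gamma subunit of the chaperonin TRiC that folds actin and tubulin, held 701, 920 and 642 reads, or 2164, 1968 and 2102 RPM. It varied least, at 2078 ± 100 RPM (coefficient of variation 4.83%), with a bound of 44.05-fold.

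**Figure D1:**
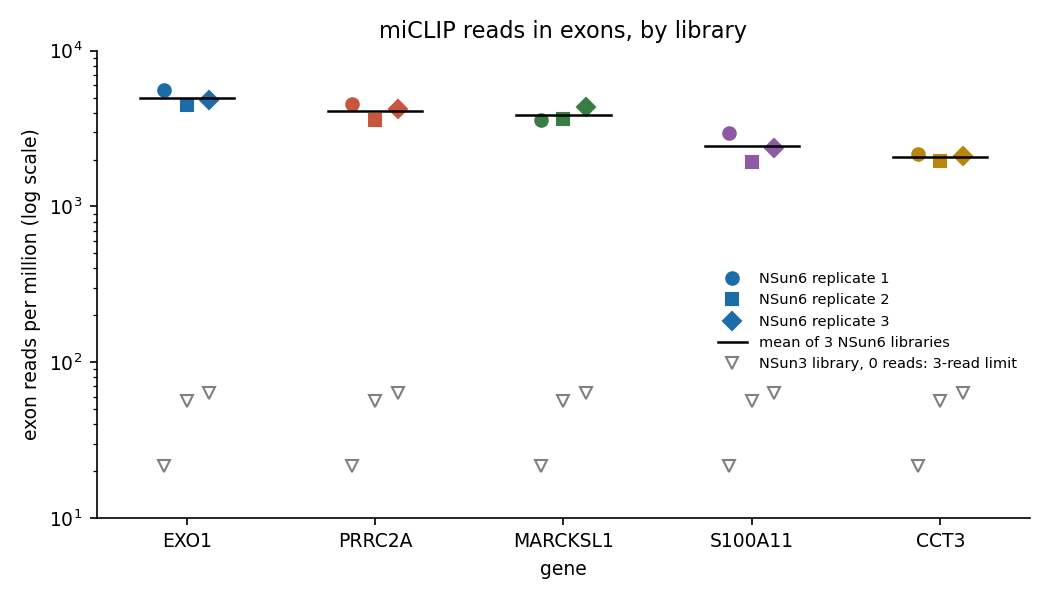
Exon RPM of the 5 genes in each miCLIP library, on a log axis; filled symbols are the 3 NSun6 libraries, lines their means, and open triangles the 3-read limit of each NSun3 library, all of which held 0 reads. NSun6 libraries lie between 1933 and 5563 RPM and the NSun3 limits between 21.6 and 63.4 RPM.

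Every NSun6 library lay above every NSun3 library in all 5 genes, as it did in 95.3% of 1520 genes that passed a filter on low counts. The genes were chosen by this contrast, so the levels and folds are a description and carry no test. All folds against NSun3 in RPM also hold a difference between the libraries as a whole. Exons of protein-coding genes took 1.27% to 2.25% of NSun3 reads and 49.0% to 50.5% of NSun6 reads. In the order of mean RPM the replicate ranges of EXO1 and PRRC2A overlapped, as did those of PRRC2A and MARCKSL1 and those of S100A11 and CCT3, whereas all MARCKSL1 libraries lay above all S100A11 libraries. Among all protein-coding genes these 5 took ranks 1, 2, 4, 9 and 11, and the genes between them (CALR, H4C1, ARHGDIA, RHOG, CKB and SRRM2) each held at least 1 NSun3 read. For H4C1, at 3367 RPM, this was a single read in NSun3 replicate 3, so without that library H4C1 would take a place in the choice and CCT3 would fall outside it. The next genes without an NSun3 read were TIMM50 at 1968 RPM, MLF2 at 1898, ATXN2L at 1825, SCRN1 at 1707 and RBM17 at 1704, so CCT3 lay just inside the choice and TIMM50 just outside, with overlapping replicates. Scaled to the length of all annotated exons the order changed. S100A11 then had 3749 RPM per kb, MARCKSL1 2513, EXO1 1200, CCT3 538 and PRRC2A 452.

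The pattern over the 6 libraries most like each gene, measured as the distance in log2(RPM + 1), was mostly that of another of the 5. PRRC2A was nearest to EXO1 (0.47) and to MARCKSL1 (0.34), MARCKSL1 to PRRC2A (0.34), CCT3 to S100A11 (0.50) and TIMM50 to CCT3 (0.17). All of these genes are without NSun3 reads, so the distances reflect the NSun6 libraries alone. The 5 genes were chosen by these same values. Each nearest gene stood next to its gene in the order of mean RPM among genes without an NSun3 read. This likeness was thus set by the choice and is no support for a shared pattern.

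Reads of the 5 genes started almost entirely in exons, with 99.1% to 99.9% of the reads on the gene's strand lying there. Within the exons their distribution differed between EXO1 and the other genes. In EXO1 the 5′ UTR held 88.7%, 91.0% and 94.0% of exon reads in replicates 1, 2 and 3 (91.2 ± 2.64%, SD, n = 3), although it makes up 16.5% of the canonical transcript. The coding region took most reads in PRRC2A (99.9 ± 0.173%), CCT3 (97.9 ± 0.584%), MARCKSL1 (90.8 ± 0.653%) and S100A11 (83.8 ± 6.58%). It makes up 93.7%, 82.7%, 37.8% and 56.0% of these transcripts. In MARCKSL1 the 3′ UTR, 49.2% of the transcript, held 2.40 ± 0.381% of reads.

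**Figure D2:**
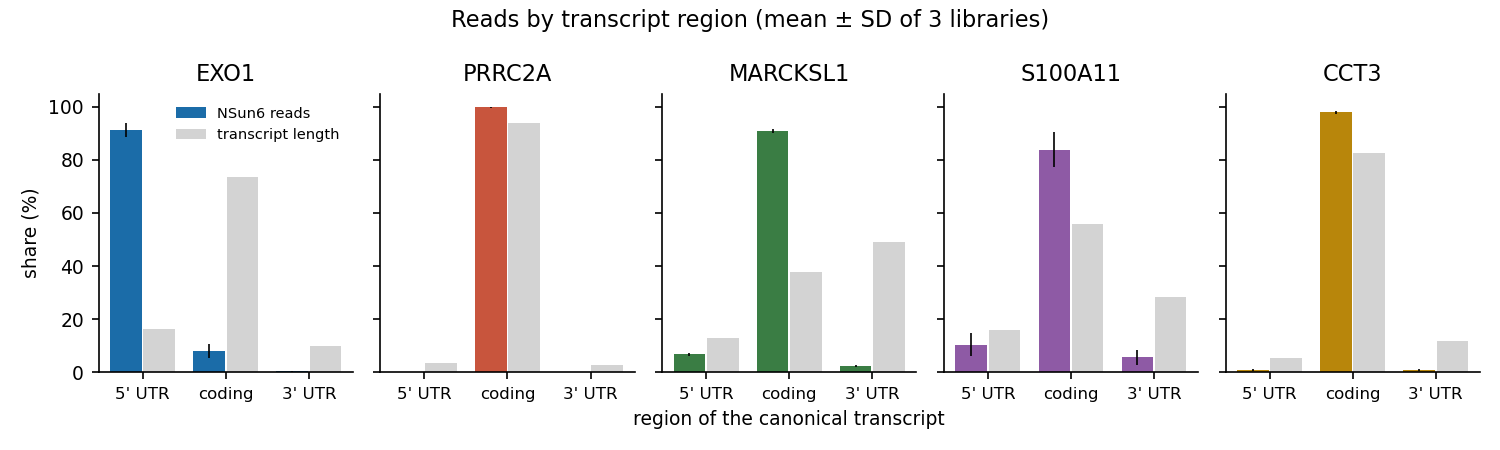
Share of NSun6 exon reads in each transcript region (coloured bars, mean with SD of 3 libraries) beside that region's share of the canonical transcript (grey bars), in percent. EXO1 reads lie in the 5′ UTR (91.2%), and reads of the other genes lie in the coding region (83.8% to 99.9%).

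In EXO1 the leading cytosine, at position 242011602 of chromosome 1, lies in exon 1, in the 5′ UTR, 473 nt of mRNA before the first coding base. It held 1225, 1343 and 1054 reads in replicates 1, 2 and 3, which is 68.0%, 64.3% and 71.1% of the gene's reads (67.8 ± 3.41%, SD, n = 3). Of all 1209 high-confidence NSun6 sites in protein-coding exons, defined as cytosines above 50 RPM in 2 or more replicates, it ranked first by mean RPM. EXO1 had 2 other such sites. A CTCCA in coding exon 13, at position 242042410, held 118, 78 and 53 reads, and the third base of the leading motif held 76, 84 and 85 reads.

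In PRRC2A the leading cytosine, at position 31604122 of chromosome 6, lies in coding exon 26 at base 5761 of 6471 coding bases, late in the reading frame. It held 1165, 1199 and 1000 reads, or 78.8%, 71.8% and 77.1% of the gene's reads (75.9 ± 3.64%), and ranked 3 among the exon sites. The motif there is CTCTA, which the exons of PRRC2A hold 7 times, and 3 of the 7 had reads, with at most 15 at any but the leading one. The exons hold 28 CTCCA, of which 14 had reads, with at most 52 at 1 of them. A CTCCA beginning 7 nt 3′ of the leading cytosine held 13 reads, against 3364 at the leading cytosine over the same libraries.

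In MARCKSL1 and S100A11 the leading cytosine lies close to the start of translation. The MARCKSL1 cytosine, at position 32801620 of chromosome 1, is base 15 of 585 coding bases, in exon 1, and the sequence printed above begins at the start codon. It held 882, 1158 and 1039 reads, or 75.3%, 67.6% and 77.7% of the gene's reads (73.6 ± 5.26%). The S100A11 cytosine, at position 152006268 of chromosome 1, is base 12 of 315 coding bases and lies 8 nt from the 5′ edge of exon 2. It held 722, 505 and 530 reads, or 74.7%, 55.9% and 72.8% (67.8 ± 10.4%), the lowest share being that of replicate 2. These cytosines ranked 5 and 8 among the exon sites.

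In CCT3 the leading cytosine, at position 156287296 of chromosome 1, lies in the middle of the reading frame, in exon 9 at base 802 of 1635 coding bases. It held 586, 718 and 486 reads, or 83.6%, 78.0% and 75.7% of the gene's reads (79.1 ± 4.05%), and ranked 9. For comparison, the leading cytosine took a median of 57.0% of reads (quartiles 40.0% and 72.9%) over 1888 protein-coding genes with at least 50 RPM, and 269 to 632 of them had a higher share than the 5 genes. Shares of this size were thus found in many other genes.

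Read starts peaked 1 nt 3′ of the leading cytosine in every gene. This offset held 97.6 ± 0.997% of the reads assigned to the leading cytosine in EXO1, 94.7 ± 1.17% in PRRC2A, 89.1 ± 1.70% in MARCKSL1, 100% in S100A11 and 73.7 ± 7.53% in CCT3 (SD, n = 3). The base at this offset is the T between the first and the third base of the motif, both cytosines. The rule of the closest cytosine, which takes no account of the direction of reverse transcription, tied these reads between a pair of cytosines. Such ties were given to the 5′ cytosine. Given to the 3′ cytosine instead, the share at the leading cytosine fell to 1.60% in EXO1, 4.06% in PRRC2A, 8.01% in MARCKSL1, 0% in S100A11 and 20.7% in CCT3.

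**Figure D3:**
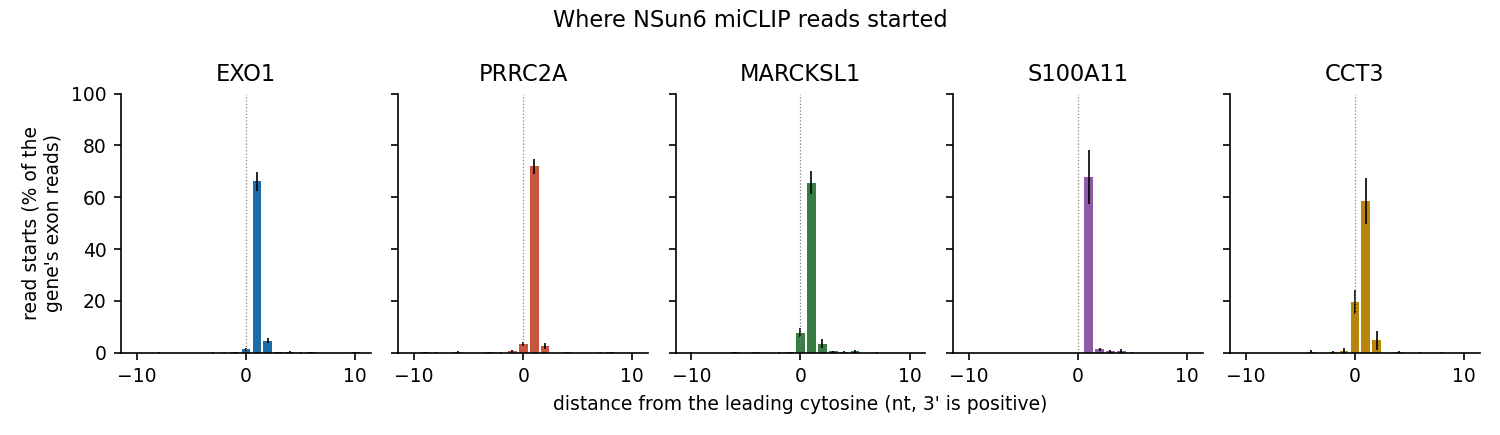
Starts of NSun6 reads by distance from the leading cytosine, as a percentage of the gene's exon reads (bars are means and lines SD of 3 libraries; the dotted line marks the leading cytosine). The tallest bar stands 1 nt 3′ of the cytosine in each of the 5 genes.

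The 5 genes held 13 high-confidence sites, with 3 in EXO1, 3 in PRRC2A, 4 in MARCKSL1, 1 in S100A11 and 2 in CCT3, and 10 of the 13 passed 50 RPM in all 3 replicates. Counting the leading cytosines themselves, 10 of the 13 lay within 20 nt of a leading cytosine. The first cytosine of CTCCA made up 6 of the 13 (46.2%, 95% Clopper-Pearson interval 19.2% to 74.9%), among them 4 of the 5 leading cytosines. Over all exon sites this share was 88.3% (1067 of 1209), and over all exon cytosines of the 5 genes it was 0.917% (48 of 5235). CTCTA, the motif of PRRC2A, was at 88 of the 1209 sites (7.28%). In EXO1, PRRC2A, MARCKSL1 and CCT3 the third base of the leading motif, 2 nt from the leading cytosine, was itself counted as a site. Sites of the same peak are not independent, which the interval does not take into account. The shares of 46.2% and 88.3% therefore do not show that CTCCA was used less in these genes. Of the sites elsewhere, a MARCKSL1 cytosine 15 nt 5′ of the leading one, directly before the start codon, held 47, 69 and 61 reads. Another MARCKSL1 cytosine, 41 nt 3′ of the leading one, held 20, 71 and 3 reads and so rested on replicates 1 and 2.

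Bisulfite reads were not used in choosing the genes. MARCKSL1 and CCT3, the genes with deep coverage at the leading cytosine, each had a level there that stood above the surrounding cytosines and was below 20%, the level at which a cytosine was called methylated. In MARCKSL1 166 of 1784 reads were unconverted, a level of 9.30% (95% Clopper-Pearson interval 7.997% to 10.7%). The other cytosines of the exon strand within 50 nt had 35 of 63037 reads unconverted, or 0.0555% (two-sided Fisher's exact test, Benjamini-Hochberg adjusted over all exon sites tested, p = 5.89e-222). It was the highest level of the 411 MARCKSL1 exon cytosines with a coverage over 5 reads.

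In CCT3 163 of 6438 reads were unconverted at the leading cytosine, a level of 2.53% (2.16% to 2.95%), which ranked 11 among the 523 CCT3 exon cytosines with a coverage over 5 reads. That rank includes cytosines of low depth, and the highest level, 14.3%, came from 1 of 7 reads. Of the 283 cytosines with at least 100 reads, 3 reached 1%, the leading one included. The neighbours had 47 of 106454 reads, or 0.0442% (two-sided Fisher's exact test, adjusted p = 4.81e-156). The third base of the motif, 2 nt 3′ of the leading cytosine, differed from it in both genes. It had 0 of 1847 unconverted reads in MARCKSL1 (interval up to 0.200%) and 2 of 6482 in CCT3, 0.0309% (0.00374% to 0.111%), so that where miCLIP reads were tied between both cytosines the unconverted reads lay at the first. Set against neighbours that included the leading cytosine this base was lower in both genes (Fisher's exact test, adjusted p = 0.027 and 0.00508), and with the leading cytosine taken out of the neighbours, an alternative chosen after seeing the data, it was not (p = 0.627 and 1).

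**Figure D4:**
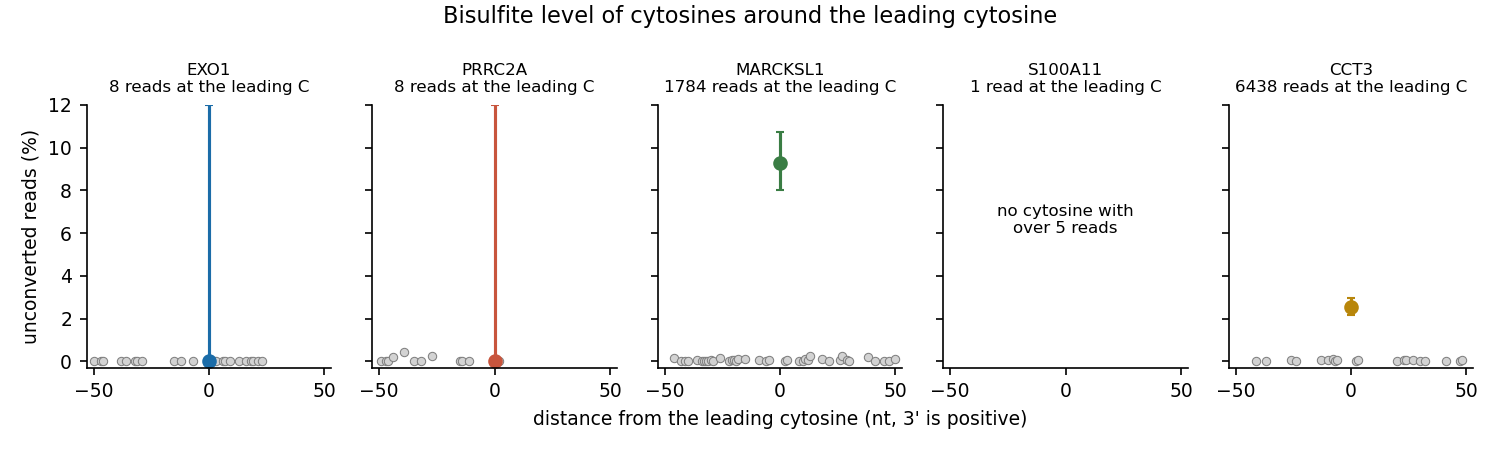
Unconverted bisulfite reads (percent) at cytosines within 50 nt of the leading cytosine, for cytosines covered by over 5 reads; coloured points are the leading cytosines with 95% Clopper-Pearson intervals, and those of EXO1 and PRRC2A run past the top of the axis to 36.9%. MARCKSL1 (9.30%) and CCT3 (2.53%) stand above their neighbours, and S100A11 has no cytosine with enough reads.

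In EXO1, PRRC2A and S100A11 the depth at the leading cytosine could not show such a level. The bisulfite table held 0 unconverted of 8 reads in EXO1, 0 of 8 in PRRC2A and 0 of 1 in S100A11, which with an upper 95% limit of 36.9% for 8 reads would cover the levels of MARCKSL1 and CCT3. PRRC2A was otherwise well covered, with a median of 167 reads over its exon cytosines with more than 5 reads, against 42 in EXO1, 11 in S100A11, 488 in MARCKSL1 and 197 in CCT3. The exon 13 site of EXO1 was better covered, with 0 of 134 reads unconverted and an upper limit of 2.72%. In PRRC2A the CTCCA in exon 16, at position 31599263, had 2 of 642 reads unconverted, 0.312% against 0.126% in its neighbours (two-sided Fisher's exact test, adjusted p = 0.426). A PRRC2A CTCCA in exon 15, at position 31598458, had 4 of 224 reads unconverted (1.79%) and 27 NSun6 reads. It was not a high-confidence site and was not tested.

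Altogether 12 of the 13 sites could be tested and 2 were higher than their neighbours, while over all NSun6 exon sites 30.4% were higher (293 of 964). A level of at least 20% was reached by 0 of the 12 and by 26 of the 964 sites (2.70%). Among the 76 exon sites with at least 1000 reads the median level was 0.4004%, and 21 of them, MARCKSL1 and CCT3 included, reached 1%. The bisulfite reads are those of 1 table, so the tests and intervals cover the counting of reads only, and PCR copies among them were not removed here.

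Away from the miCLIP sites, 17 of 4172 exon cytosines of the 5 genes with a coverage over 5 reads were called methylated (0.407%), against 0.263% of 8536005 exon cytosines of all protein-coding genes. All 17 were in PRRC2A, at coverages of 11 to 33 reads, and none had an NSun6 read. A run of 8 lay in exon 7 at positions 31593332 to 31593353, where levels were 32.1% to 54.5%. Another run of 8 lay in exon 11 at positions 31594939 to 31594960, with 27.3% to 61.1%, and the last was in exon 19 at position 31602074, with 6 of 24 reads. Neighbouring cytosines within a run can be read from the same molecules, so they are not independent calls. A call rests on unconverted reads, and whether these came from methylation or from incomplete conversion was not tested. The study also states that its bisulfite method cannot tell 5-methylcytosine from 5-hydroxymethylcytosine. In CCT3 a cytosine 83 nt 3′ of the leading one, at position 156287213, had 28 of 206 reads unconverted (13.6%) and no NSun6 read.

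The predicted chance of being unpaired, from folding the genomic sequence with 30 nt on each side, was high at 4 of the 5 leading cytosines and low at the other. The S100A11 cytosine lies 8 nt from the edge of its exon, so its window included intron sequence. The predicted chance was 0.999 in EXO1, 1.00 in PRRC2A, 0.999 in S100A11 and 0.927 in MARCKSL1, where the medians over all exon cytosines were 0.459, 0.531, 0.673 and 0.450. It lay above 97.4%, 99.4%, 94.7% and 74.9% of the exon cytosines of these genes. Medians over their other CTCCA were 0.627 in EXO1, 0.880 in PRRC2A, 0.502 in S100A11 and 0.612 in MARCKSL1, the last from 2 motifs. In CCT3 the predicted chance was 0.00409, against a median of 0.424 over its exon cytosines and of 0.203 over its other CTCCA. With 50 nt on each side the MARCKSL1 value dropped to 0.193, and the values of EXO1, PRRC2A, S100A11 and CCT3 were 0.986, 1.00, 0.986 and 0.00226. At that width the CCT3 window also included intron sequence, as its cytosine lies 42 nt from the edge of its exon. These are predictions from sequence, not measurements, and carry no test.

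Mean bisulfite coverage per exon cytosine was taken as a measure of the poly(A) RNA read from each gene, scaled to its sequence. It was 91.6 reads per exon cytosine in EXO1, 501 in PRRC2A, 796 in MARCKSL1, 106 in S100A11 and 1431 in CCT3, against a median of 56.9 over the 1888 genes with at least 50 RPM of NSun6 reads. The 5 genes thus lay above that median, but 64 to 2578 of the 20121 protein-coding genes lay higher. By this mean CCT3 had the highest and EXO1 the lowest coverage of the 5, while in NSun6 RPM per kb of exon S100A11 was highest and PRRC2A lowest. Coverage was uneven within genes. Over exon cytosines with more than 5 reads the median was lower in S100A11 (11) than in EXO1 (42). The part of mRNA abundance in the NSun6 levels was not tested.

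**Figure D5:**
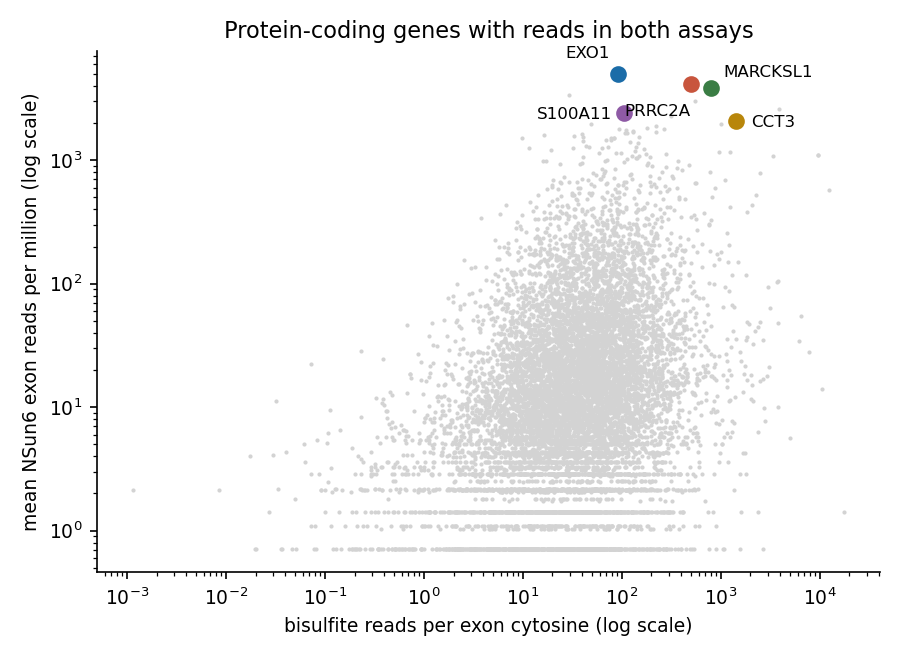
Mean NSun6 exon RPM against bisulfite reads per exon cytosine for protein-coding genes with reads in both (grey, log axes), with the 5 genes coloured. They lie near the top of the NSun6 axis (2078 to 4963 RPM) and at 91.6 to 1431 bisulfite reads per cytosine.

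Genes related to the 5 by family, complex or pathway were counted over 43 genes in fixed lists. Of these 33 had an NSun6 read and 10 (23.3%) reached 50 RPM, against 10608 and 1888 (9.38%) of 20121 protein-coding genes. Only 9 passed the filter on low counts, and they passed it through their NSun6 reads, so the calls that follow are no support for a difference. All 9 were then called higher in NSun6 (edgeR, quasi-likelihood, at a false discovery rate of 0.05), as were 91.6% of the 1520 genes tested, and none was called higher in NSun3. Since these genes passed the filter through the group where they were high, no p is given for single genes. Of the 10 genes at 50 RPM or more, 9 had their leading cytosine at CTCCA, as did 88.4% of all 1888 protein-coding genes at that level. Both values were taken with ties given to the 5′ cytosine.

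Around PRRC2A, which has been described as a reader of m6A, the lists hold its paralogs and the m6A machinery. PRRC2B held 70, 96 and 73 NSun6 reads and no NSun3 read, a mean of 220 ± 17.2 RPM and at least 4.67-fold above NSun3. PRRC2C held 77, 39 and 33 reads against 2, 0 and 0, a ratio of pooled RPM of 16.3 (exact 95% interval 4.42 to 135, counting error only). The fitted log2 fold change of PRRC2C was 3.24, 5.31 with RLE scaling and 8.21 without NSun3 replicate 1, which held its NSun3 reads. In the main fit the median over all tested genes was 7.62, above the 3.24 of PRRC2C. WTAP, a subunit of the m6A methyltransferase complex, was the highest of all 43 genes.

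WTAP held 166, 242 and 169 reads and no NSun3 read, a mean of 528 ± 22.3 RPM and at least 11.2-fold above NSun3, with 63.4% of its reads at a CTCCA. In the m6A list of 13 genes, 3 passed the filter and were called, the others being IGF2BP1, an RNA-binding reader protein (161 ± 36.3 RPM), and YTHDC2, an RNA helicase of the YTH family (111 ± 43.5 RPM). The demethylase ALKBH5 had 55.5 ± 46.4 RPM and did not pass the filter.

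Of the mismatch repair and flap nuclease genes around EXO1, 2 of 12 passed the filter and were called, the nuclease GEN1 at 119 ± 31.8 RPM and the mismatch recognition gene MSH3 at 89.2 ± 27.4 RPM, and RPA1, a single-stranded DNA-binding protein, had 25.5 RPM. The list median was 8.44 RPM. MARCKS, the paralog of MARCKSL1, held 52, 76 and 53 reads and no NSun3 read, a mean of 166 ± 7.01 RPM and at least 3.51-fold above NSun3, with 72.9% of its reads at a CTCCA.

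Of the 8 other S100 genes in the list only S100A10 and S100A16 had NSun6 reads, 0, 9 and 1 for S100A10 and 0, 4 and 0 for S100A16, and none passed the filter. At the leading cytosine of S100A10 the bisulfite table held 1344 reads, against 1 at that of S100A11. Elsewhere in its exons S100A11 had up to 984 reads at a cytosine, so these depths do not compare the amounts of the mRNAs. Each of the 7 other TRiC subunits had NSun6 reads, with a median of 21.3 RPM. TCP1 was the only one to pass the filter, at 111 ± 8.36 RPM against 4 NSun3 reads, all in NSun3 replicate 2, a ratio of pooled RPM of 6.71 (exact 95% interval 2.55 to 25.01, counting error only). Its fitted log2 fold change was 1.99, 3.84 with RLE scaling and 7.79 without that library, when it rested on no NSun3 read. The 1.99 of TCP1 lay below the median of 7.62 over all genes tested in the main fit. CCT6A, CCT8 and CCT4 followed with 41.8, 27.4 and 21.3 RPM, against the 2078 RPM of CCT3. Over all protein-coding genes the median was 0.713 RPM.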

How the data were processed

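In the study, miCLIP reads with identical random barcodes were collapsed and trimmed reads were aligned to hg19 with Bowtie, unique matches only. The deposited miCLIP values are counts of read starts at each genomic position, 1 file per library and with no strand given. Chromosomes occur 2 times in every file, and the first block was read as plus strand (96.7% to 97.2% of NSun6 positions in exons of 1 strand lay on that strand, 76.1% to 87.2% for NSun3). The authors made the bisulfite table with Bismark, and for each cytosine it holds the counts of converted and unconverted reads and the deposited percent, with both samples in 1 table and the pooling not given in the sources used here.

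Here reads were counted over exons (GENCODE on GRCh37) and each start was assigned to a cytosine at most 2 nt away, the closest one or, between equally close ones, the 5′ one. RPM are over all reads of a file. Genes were fitted with edgeR 4.0.16 (TMM, filterByExpr, quasi-likelihood test), tested on simulated data, and with DESeq2 as an alternative. Fisher tests of bisulfite reads were adjusted over all NSun6 exon sites tested, not over the sites of the 5 genes as first planned, since the genes were chosen. Intervals and limits cover counting error only. Unpaired probabilities came from ViennaRNA 2.7.2. The genes, gene lists and tests were chosen with earlier results of these data known. Related genes were named by a rule of at most 4 per list with the highest mean NSun6 RPM, and 1 gene under this rule is not reported here. Labels do not say whether replicates were separate cultures, so p-values of the gene fits measure the spread between these libraries. Those of the Fisher tests cover the counting of reads in 1 bisulfite table only.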

Additional observations from a re-analysis of the deposited data

How the results depend on the processing

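Of 200 alternative values of 31 results 18 moved and 14 lost a call. The other 168 kept their call or stayed within 1.5 times, the spread between replicates or the counting interval of the main value. None was recorded as a change of direction, which could not be recorded for RPM, shares of reads or counts of sites and genes. Where ties went to the 3′ cytosine the shares at the leading cytosines became 1.60% (EXO1), 4.06% (PRRC2A), 8.01% (MARCKSL1), 0% (S100A11) and 20.7% (CCT3). Over nuclear reads all 5 genes rose, to 5449 RPM in EXO1, 4531 in PRRC2A, 4263 in MARCKSL1, 2673 in S100A11 and 2281 in CCT3. Only CCT3, with the smallest SD, moved by more than its spread between replicates. A minimum of 20 RPM gave 37 sites in the 5 genes, of which 24.3% were at CTCCA in place of 46.2%, and a coverage of at least 20 gave 9 called methylated cytosines. Without a filter on low counts 3819 genes were called higher in NSun6 and 85 higher in NSun3, against 1393 and 27. Leaving out 1 library gave 1056 to 2586 and 11 to 40. Without NSun3 replicate 1, 2 or 3 the counts higher in NSun6 were 2586, 2195 and 2169, as 2757 to 2776 genes then passed the filter in place of 1520, and without NSun6 replicate 1, 2 or 3 the counts higher in NSun3 were 12, 15 and 11.

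With a replicate block 1 gene was called higher in NSun6 and 4 higher in NSun3, and the 9 related genes lost their calls (adjusted p 0.05004 to 0.241) while their fitted log2 fold changes were 3.23 to 9.77, against 1.99 to 9.77 without the block, with 1274 genes at an unadjusted p under 0.05. Same-numbered libraries had deviations correlated at 0.0311, 0.0684 and 0.0245, and each library correlated best with its own number. The 83.0% of tested genes without an NSun3 read had no NSun3 deviation. This check could therefore not decide whether the numbers were pairs, and the main fit did not take them as pairs. TCP1 also lost its call in DESeq2, and PRRC2C without NSun3 replicate 2 or 3. Median fitted log2 fold changes over all tested genes were 7.62 with TMM, 8.11 with RLE and 7.73 with library totals alone, and depend on the prior count because 83.0% of tested genes had no NSun3 read. Depth limits what the bisulfite table can show at EXO1, PRRC2A and S100A11.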
